A study of Mus musculus with 2 samples.

Results

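Glutathione transferases and antioxidant enzymes were described in SOX2-GFP lingual epithelial cells of newborn mice. Members were chosen by gene name. They are the numbered glutathione transferases (*Gsta*, *Gstm*, *Gstp*, *Gstt*, *Gsto*, *Gstk*, *Gstz* and *Mgst*), the peroxiredoxins *Prdx1* to *Prdx6*, the superoxide dismutases *Sod1* to *Sod3*, and *Cat*, *Nqo1*, *Gclc*, *Gclm*, *Gsr*, *Gss*, *Srxn1*, *Hmox1*, *Hmox2*, *Txn1*, *Txn2*, *Glrx*, *Nfe2l2* and *Keap1*. This rule found 49 of the 21628 entries of the expression table, with 47 distinct symbols, because *Gstp1* and *Gstp2* each have a second identifier that is at 0 in both libraries and is not listed in the GENCODE M21 annotation.

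Epithelium was peeled enzymatically from tongues of P0 pups of the genotype Sox2GFP, in which GFP reports *Sox2*, and was pooled and digested to single cells. Cells were sorted by GFP brightness into a population labelled GFP_High and a population labelled GFP_Low, with about 100000 cells and 1 stranded mRNA library of single-end reads per population. Both populations carry the same reporter and come from the same tissue and age, and each is a mixture of cell types cut from a continuum of fluorescence. Because there is 1 library per population, no difference below has a replicate check and no p-value is given. *Sox2* itself had 112 FPKM in the GFP high library against 59.0 FPKM in the GFP low library, a ratio of 1.90. FPKM is a level per kilobase of transcript, normalised to library size. The summed FPKM was not equal in the libraries, so ratios between them depend on the scale, which is examined below. Levels of different genes are set side by side as deposited, apart from selenoprotein genes, whose levels stood apart.

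Glutathione is a small peptide thiol that cells make from glutamate, cysteine and glycine and that serves as the electron donor or conjugation partner for much of their detoxification chemistry. Glutathione transferases attach it to reactive electrophiles such as lipid aldehydes, while peroxiredoxins, superoxide dismutases and catalase remove peroxides and superoxide directly. Many of these genes are targets of NRF2 (*Nfe2l2*), a transcription factor that KEAP1 holds at low levels until electrophiles or oxidants modify KEAP1, and which binds antioxidant response elements. In stratified epithelia such as the tongue these enzymes are part of the barrier against ingested chemicals.

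The most abundant member in both libraries was *Gsto1*, an omega class transferase, and the main differences lay in the transferases. A gene was called higher in a population when it had at least 5 FPKM there and a ratio of at least 1.5 over the other population. By this rule 9 of the 49 entries were higher in GFP high cells (18.4%), beside 4.72% of all 21590 entries with a number in both libraries, and 2 were higher in GFP low cells (4.08%), beside 4.44% of all entries. Of the 37 members that reached 5 FPKM in either library, 24.3% were called higher in GFP high cells and 5.41% were called higher in GFP low cells. The matching shares over all 10760 genes at that level were 9.48% and 8.9%. The 9 members higher in GFP high cells were *Gsta4*, *Gsta2*, *Gstm1*, *Gstm4*, *Gsto1*, *Gstt3*, *Mgst1*, *Mgst2* and *Glrx*, so that 8 of them are transferases. The 2 members higher in GFP low cells were *Gclm* and *Gsta3*. With a stricter rule that asks for 5 FPKM in both libraries, *Gsta2* and *Gstm4* drop out, which leaves 7 of 35 members higher in GFP high cells, beside 7.76% of all 10016 genes at that level, and 2 higher in GFP low cells, beside 6.32%.

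Over the 47 members not at 0 in both libraries, the difference of log2(FPKM + 1), GFP high minus GFP low, had a median of 0.20, with 34 members higher in GFP high cells and 13 higher in GFP low cells. Over all 17283 such genes the median was −0.02, and 45.6% were higher in GFP high cells. Among the 37 members at 5 FPKM or more in either library, 28 were higher in GFP high cells (75.7%), against 44.6% of all genes at that level, and 15 differed by less than 1.2-fold (40.5%), against 55% of all genes. Each library can instead be divided by its summed FPKM, which gives TPM and lowers every ratio of GFP high over GFP low by 0.10 on the log2 scale. On the TPM scale 8 members were called higher in GFP high cells, since *Mgst1* fell to a ratio of 1.46, and 3 in GFP low cells, since *Gstk1* reached 1.59. Over all genes, calls higher in GFP high cells went from 1020 on the FPKM scale to 807 on the TPM scale. Calls higher in GFP low cells went from 958 to 1219. The share of all calls that were higher in GFP high cells was 51.6% on the FPKM scale and 39.8% on the TPM scale.

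**Figure D1:**
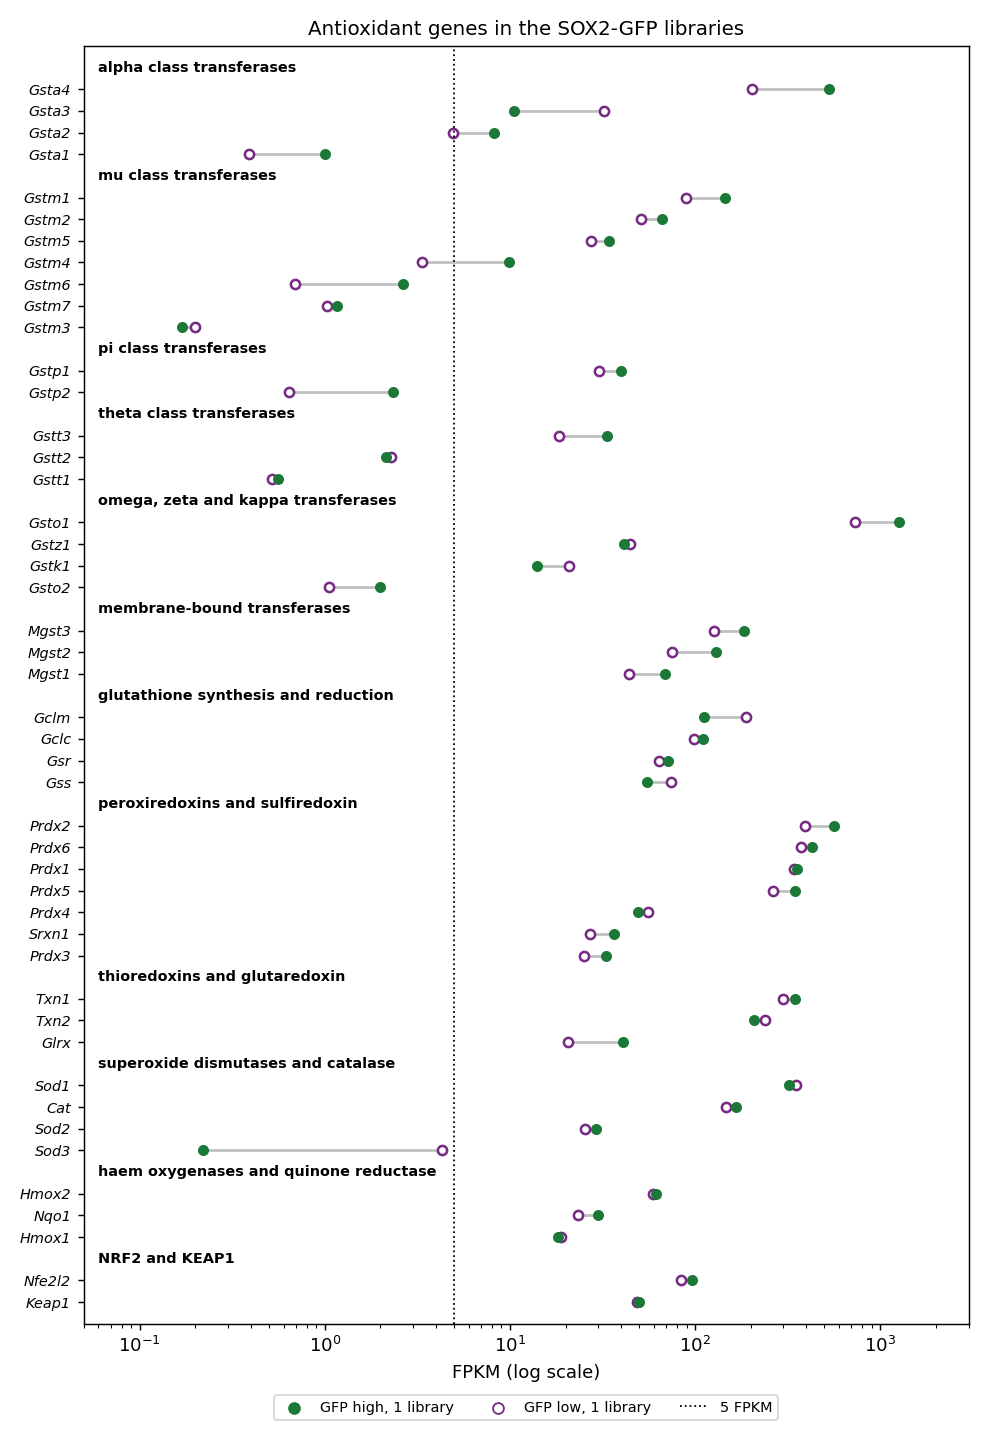
FPKM of the 46 members with a value above 0 in both libraries, on a log axis, grouped by role. Filled points are the GFP high library and open points the GFP low library, each a single library with no error bar, and the dotted line marks 5 FPKM. *Gsto1* lies farthest right in both libraries, and *Sod3* has the widest gap between its points.

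**Figure D2:**
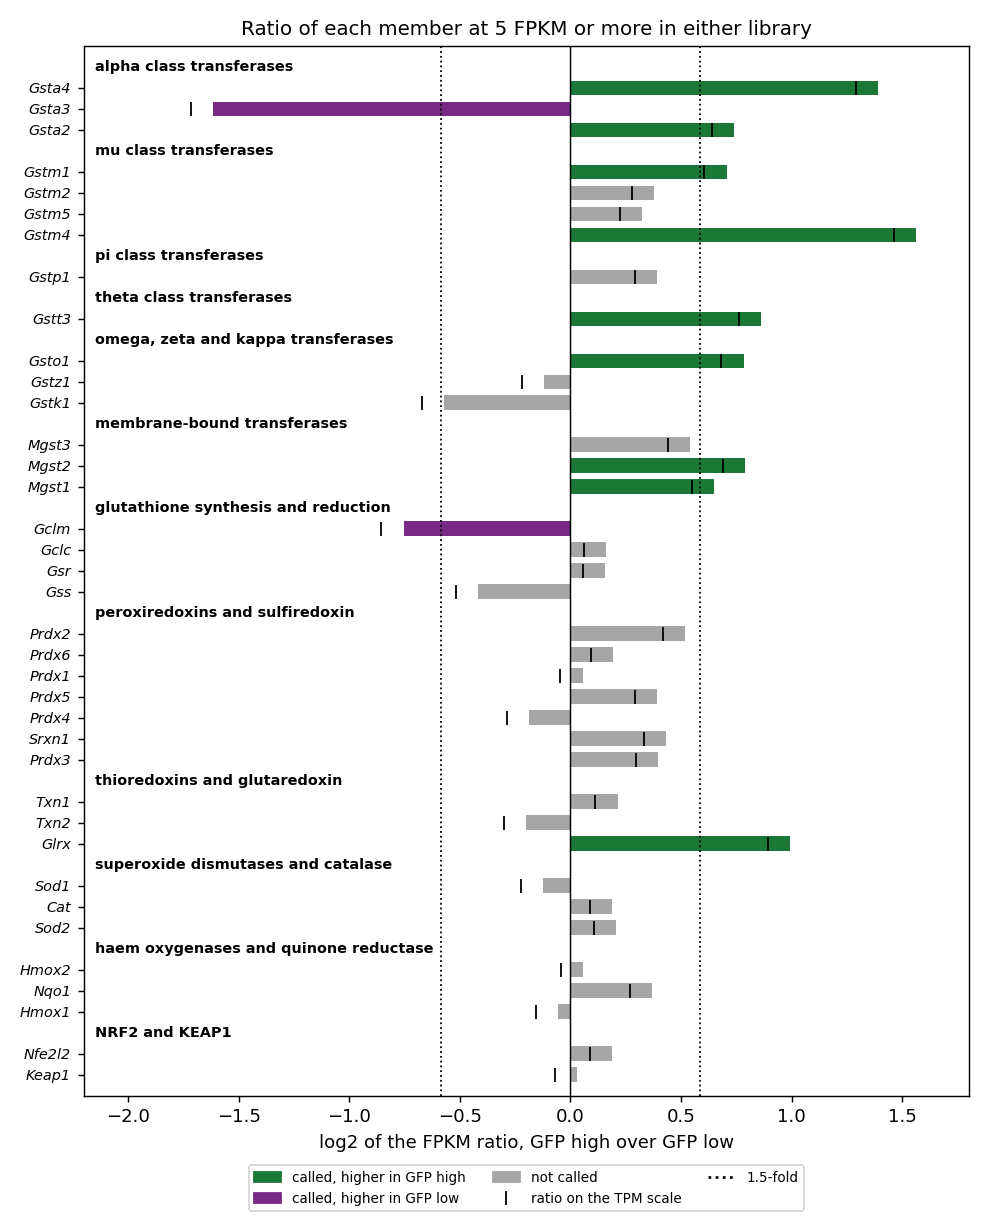
The log2 ratio of FPKM, GFP high over GFP low, for the 37 members at 5 FPKM or more in either library. Green bars are called higher in GFP high cells, purple bars higher in GFP low cells and grey bars not called, dotted lines mark a ratio of 1.5 in each direction, and the short black ticks show the same ratio on the TPM scale. Most transferase bars point to GFP high cells, *Gsta3* and *Gclm* point the other way, and no peroxiredoxin bar reaches a dotted line.

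The alpha class shows why some members can be measured separately and others cannot. The first 50 coding bases are shown for the 4 alpha class members, 5′ to 3′ on the coding strand and read from GENCODE M21 transcripts (mm10), with capitals where a base differs from *Gsta2*. Reads were 50 nt long, so each line is the length of 1 read, and each stretch lies within 1 exon.
Gsta2, chr9:78341867-78341916, minus strand: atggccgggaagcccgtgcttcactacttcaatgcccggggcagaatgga
Gsta1, chr9:78232240-78232289, plus strand: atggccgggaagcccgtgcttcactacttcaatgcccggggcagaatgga
Gsta3, chr1:21249772-21249821, plus strand: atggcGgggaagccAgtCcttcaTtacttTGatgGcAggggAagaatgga
Gsta4, chr9:78198290-78198339, plus strand: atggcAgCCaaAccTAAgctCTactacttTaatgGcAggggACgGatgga
*Gsta1* is identical to *Gsta2* over this stretch, whereas *Gsta3* differs at 9 bases and *Gsta4* at 15. Over the whole coding sequence *Gsta1* and *Gsta2* were 97.6% identical and *Gsta3* and *Gsta4* were 66% identical. Of all 50-nt exon windows, 90.5% in *Gsta1* (most of them in *Gm3776*) and 49.8% in *Gsta2* (most of them in *Gsta1*) occur at another locus, but 0.273% in *Gsta3* and none in *Gsta4*. The FPKM of *Gsta1* and *Gsta2* are therefore uncertain, and those of *Gsta3* and *Gsta4* rest almost wholly on windows found at a single locus.

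*Gsta4* (ENSMUSG00000032348, chr9:78182774-78209349) encodes the alpha class enzyme known for conjugating 4-hydroxynonenal, an aldehyde formed by lipid peroxidation. It had 532 FPKM in the GFP high library against 203 FPKM in the GFP low library, a ratio of 2.62, and was the third most abundant member in GFP high cells. *Gsta3* (ENSMUSG00000025934, chr1:21240589-21265661), whose product is known in the mouse for conjugating the epoxide of aflatoxin, had 10.6 FPKM in the GFP high library against 32.3 FPKM in the GFP low library, and was 3.06-fold higher in GFP low cells. These 2 genes of the same class thus had the largest FPKM ratio in GFP low cells and the largest but one in GFP high cells among the called members. *Gsta2* had 8.24 and 4.93 FPKM (ratio 1.67), and *Gsta1* had 1.00 and 0.39 FPKM, under the minimum in both libraries. In summed FPKM the alpha class was 2.29-fold higher in GFP high cells, where *Gsta4* made up 96.4% of it.

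The 7 mu class genes, cytosolic transferases that lie side by side on chr3 between 107895821 and 108044894, ranged from under 1 to 146 FPKM. *Gstm1* was the highest of them with 146 FPKM in the GFP high library against 89.4 FPKM in the GFP low library, a ratio of 1.63. *Gstm4* had 9.86 and 3.34 FPKM, and its ratio of 2.95 was the largest of any called member in GFP high cells, although it was under 5 FPKM in GFP low cells. Among members at 5 FPKM or more in both libraries the largest such ratio was that of *Gsta4*. Both were called, while the neighbouring *Gstm2* (66.2 and 51.0 FPKM, ratio 1.30) and *Gstm5* (34.5 and 27.5 FPKM, ratio 1.25) were higher in GFP high cells without reaching the 1.5 minimum. In *Gstm1*, 18.9% of windows recur elsewhere, mostly in the pseudogene *Gstm2-ps1*, and none recur in *Gstm4*. *Gstm3*, *Gstm6* and *Gstm7* stayed between 0.17 and 2.64 FPKM, so that the cluster was expressed mainly from 3 of its genes.

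*Gsto1* (ENSMUSG00000025068, chr19:47854970-47864790), whose product reduces dehydroascorbate and removes glutathione from proteins, had 1261 FPKM in the GFP high library against 733 FPKM in the GFP low library, a ratio of 1.72. It alone made up 48.7% of the summed transferase FPKM of the GFP high library and 48.5% of that of the GFP low library, so its share was nearly the same while its level differed. Its neighbour *Gsto2*, 66.9% identical in coding sequence, had 1.99 and 1.05 FPKM. *Gsta4* held 20.5% of transferase FPKM in the GFP high library against 13.4% in the GFP low library, and *Gsta3* held 0.407% and 2.14%. The mix of transferase transcripts thus differed mainly in its alpha class genes.

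The membrane-bound transferases, which belong to a separate protein family and act on lipid hydroperoxides and leukotriene precursors, were all higher in GFP high cells. *Mgst2* had 129 and 74.8 FPKM in GFP high and GFP low cells (ratio 1.73) and *Mgst1* had 69.1 and 44.1 FPKM (ratio 1.57). Both were called, and *Mgst1* lost its call on the TPM scale. *Mgst3* had 183 and 126 FPKM, and its ratio of 1.45 lay just under the minimum. *Gstt3*, a theta class gene, had 33.6 and 18.5 FPKM (ratio 1.82), and 12.2% of its windows lie in an overlapping gene model. The other theta class genes, *Gstt1*, *Gstt2* and *Gstt4*, lay between 0 and 2.29 FPKM.

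*Gstz1*, which degrades a tyrosine breakdown product, had 41.1 and 44.7 FPKM in GFP high and GFP low cells. *Gstk1*, a transferase of mitochondria and peroxisomes, had 14.03 and 20.83 FPKM, 1.48-fold higher in GFP low cells and just under the minimum. *Gstp1* had 39.7 and 30.2 FPKM (ratio 1.31) and *Gstp2* 2.34 and 0.64 FPKM. These pi class genes were 98.1% identical in coding sequence and share the stretch of coding bases 58 to 107, so that a 50-nt read from it cannot be assigned to one of them.
Gstp1, chr19:4037327-4037376, minus strand: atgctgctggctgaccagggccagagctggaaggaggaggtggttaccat
Gstp2, chr19:4041621-4041670, minus strand: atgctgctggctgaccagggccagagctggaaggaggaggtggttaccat
Of the exon windows, 33.7% in *Gstp1* and 54.3% in *Gstp2* recur at another locus, and how reads were divided between them was not tested.

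Across the 26 transferase entries the summed FPKM was 2590 for GFP high and 1510 for GFP low, a ratio of 1.72 that became 1.60 on the TPM scale. The 15 transferases at 5 FPKM or more comprised 8 called higher in GFP high cells, 1 called higher in GFP low cells and 6 not called. Across the 23 entries of the other members the sums were 3530 and 3227 FPKM, a ratio of 1.09 on the FPKM scale and 1.02 on the TPM scale, with 1 call in each direction. The median log2 difference was 0.53 over the 24 transferases not at 0 in both libraries and 0.16 over the 23 other members.

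**Figure D3:**
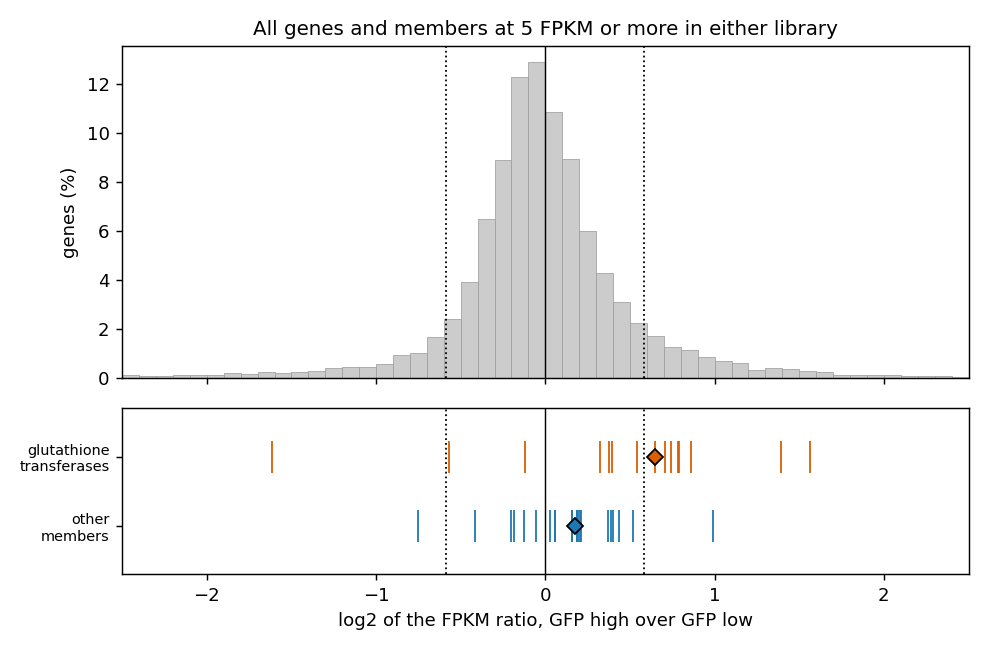
Upper panel, the percentage of the 10760 genes at 5 FPKM or more in either library in each bin of the log2 FPKM ratio, GFP high over GFP low, leaving out 190 genes beyond the axis or at 0 in 1 library. Lower panel, each member at that level as a line, with a diamond at the median, for the 15 transferases and the 22 other members. Dotted lines mark a ratio of 1.5 in each direction. The transferase lines lie mostly right of the bulk of all genes, with *Gsta3* far to the left, and the other members lie mostly between the dotted lines.

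Glutathione is made by glutamate-cysteine ligase, which has a catalytic subunit (*Gclc*) and a modifier subunit that raises its activity (*Gclm*), followed by glutathione synthetase (*Gss*), and is regenerated by glutathione reductase (*Gsr*). *Gclm* (ENSMUSG00000028124, chr3:122245557-122270732) had 112 FPKM in the GFP high library against 189 FPKM in the GFP low library, 1.69-fold higher in GFP low cells. *Gclc* had 110 and 98.9 FPKM, 1.12-fold higher in GFP high cells. The levels of the ligase's subunits were thus nearly equal in GFP high cells, while in GFP low cells *Gclm* exceeded *Gclc*. In *Gclm*, 3.92% of windows recur elsewhere, mostly in *Ppia*, and 3.91% lie in overlapping genes, while in *Gclc* none do. The part of these windows in the level of *Gclm* was not tested. *Gss* had 55.4 and 74.0 FPKM, 1.34-fold higher in GFP low cells, with 10.3% of its windows in overlapping genes. *Gsr* had 71.3 and 63.9 FPKM. Of the role groups of members, synthesis and reduction had the lowest ratio of summed FPKM, 0.820.

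The peroxiredoxins reduce peroxides through a reactive cysteine, and none of the 6 was called. *Prdx2* had 565 FPKM in the GFP high library against 394 FPKM in the GFP low library (ratio 1.43), *Prdx6* 428 and 374 FPKM (ratio 1.14), *Prdx1* 357 and 343 FPKM (ratio 1.04) and *Prdx5* 345 and 263 FPKM (ratio 1.31). These 4 were each among the 7 most abundant members in both libraries. In *Prdx5* 15.5% of windows, and in *Prdx2* 7.51%, lie in overlapping genes. The mitochondrial *Prdx3* (33.1 and 25.1 FPKM) and the endoplasmic reticulum enzyme *Prdx4* (49.1 and 55.8 FPKM) were lower. *Prdx1* turned to a ratio of 0.969 on the TPM scale. *Srxn1*, which repairs overoxidized peroxiredoxins, had 36.6 and 27.1 FPKM (ratio 1.35). In sum the 6 peroxiredoxins had 1777 and 1456 FPKM, a ratio of 1.22 on the FPKM scale and 1.14 on the TPM scale.

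Thioredoxins supply electrons to peroxiredoxins, and glutaredoxin removes glutathione from protein thiols. *Glrx* had 40.8 FPKM in the GFP high library against 20.5 FPKM in the GFP low library, a ratio of 1.99, and was the single member called higher in GFP high cells outside the transferases. The cytosolic *Txn1* had 347 and 299 FPKM (ratio 1.16) and the mitochondrial *Txn2* had 208 and 239 FPKM, 1.15-fold higher in GFP low cells. The mitochondrial members *Prdx3*, *Prdx5*, *Sod2*, *Txn2* and *Gstk1* included no call, with 3 of 5 higher in GFP high cells.

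Superoxide dismutases turn superoxide into hydrogen peroxide, which catalase breaks down. *Sod1*, in the cytosol, had 320 and 349 FPKM in GFP high and GFP low cells, *Sod2*, in mitochondria, had 29.3 and 25.4 FPKM, and *Cat* had 167 and 146 FPKM. None was called. *Sod3* (ENSMUSG00000072941, chr5:52363791-52371418), the secreted form that binds to extracellular matrix, had 0.22 FPKM in the GFP high library against 4.31 FPKM in the GFP low library. This is 19.6-fold higher in GFP low cells, about 21 against 545 reads at the estimated depths, but *Sod3* stayed under 5 FPKM in both and was not called. In *Sod2*, 21.04% of windows recur at another locus.

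*Nqo1*, a quinone reductase often read as an NRF2 target, had 30.0 and 23.2 FPKM (ratio 1.29). The inducible haem oxygenase *Hmox1* had 18.2 and 18.9 FPKM, and the constitutive *Hmox2* had 61.8 and 59.4 FPKM, with 34.8% of its windows in an overlapping gene. *Nfe2l2* had 96.0 and 84.3 FPKM (ratio 1.14) and *Keap1* had 49.9 and 48.9 FPKM (ratio 1.02). None of these 5 was called, and *Hmox2* and *Keap1* turned to 0.971 and 0.952 on the TPM scale.

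Promoters of the members were searched for the core of the antioxidant response element, TGACNNNGC, on both strands, in 250 bases before and 50 bases after the annotated gene start (RefSeq, GRCm38.p6). The core was found in 3781 of 27025 genes with an entry (14%) and in 9 of the 40 member symbols with an entry (22.5%), namely *Gclm*, *Gsta3*, *Gstm5*, *Gstm7*, *Mgst1*, *Nfe2l2*, *Prdx1*, *Sod1* and *Srxn1*. Entries were missing for *Gclc*, *Gsr*, *Gsta4*, *Gstt2*, *Hmox1*, *Prdx6* and *Sod3*. The core is shown in capitals with 10 bases on each side, on the strand of the gene, for the called members that have one and, beside them, for *Prdx1* and *Nfe2l2*, which have one and were not called.
Gclm, chr3:122245413-122245441: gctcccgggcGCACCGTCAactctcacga
Gsta3, chr1:21240454-21240482: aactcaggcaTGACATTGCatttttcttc
Mgst1, chr6:138140461-138140489: gcggggcttgGCACGGTCAggaggcgggg
Prdx1, chr4:116685456-116685484: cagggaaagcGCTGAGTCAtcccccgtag
Nfe2l2, chr2:75704885-75704913: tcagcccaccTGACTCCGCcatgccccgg
In *Gclm*, *Mgst1* and *Prdx1* the core lies on the opposite strand and is read as GCNNNGTCA. Both members called higher in GFP low cells had the core in this window, as did 1 of the 8 with an entry that were called higher in GFP high cells. The median log2 difference was 0.09 over members with the core and 0.38 over the members with an entry but no core. Members without an entry, *Gsta4* among them, are in neither median, and how binding relates to these letters was not tested. The share with the core among all called genes was not computed, nor were these medians over all genes. The counts and medians by core therefore describe the members only. Cores farther from the gene start were not searched, so a member without one here may have one elsewhere.

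Other genes of glutathione and redox metabolism were read from lists that do not overlap with the members. For these lists, the shares called over all entries were 4.72% higher in GFP high cells and 4.44% higher in GFP low cells. Over all genes at 5 FPKM or more in either library they were 9.48% and 8.9%. List ratios were not recomputed on the TPM scale, which lowers every ratio of GFP high over GFP low. Calls near 1.5 therefore depend on the scale. Of 29 genes of glutathione supply and turnover, 22 of them at 5 FPKM or more, 5 were called higher in GFP high cells and 3 were called higher in GFP low cells. *Ggt6*, of the gamma-glutamyl transferase family, had 65.8 and 32.4 FPKM in GFP high and GFP low cells (ratio 2.03), the peptidase *Anpep* had 58.2 and 28.8 FPKM (ratio 2.02), and *Idh1*, a cytosolic source of NADPH, had 87.1 and 46.6 FPKM (ratio 1.87). *Pgd* (ratio 1.67) and *Me1* (ratio 1.502), which also make NADPH, were called in the same direction. *Abcc3*, an exporter of conjugates, had 10.3 and 22.5 FPKM and was 2.17-fold higher in GFP low cells, where *Nnt* (1.54-fold) and the amino acid transporter *Slc1a5* (1.504-fold) were also called. The cystine transporter *Slc7a11* had 0.45 and 2.83 FPKM.

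Of the 8 glutathione peroxidases, *Gpx2* was called higher in GFP high cells (610 and 381 FPKM, ratio 1.60), and *Gpx3* (48.7 and 91.5 FPKM, 1.88-fold) and *Gpx7* (5.86 and 18.1 FPKM, 3.08-fold) higher in GFP low cells. A list of 22 genes around thioredoxin and glutaredoxin also holds reductases and sestrins, which are not members of those protein families. Of its genes, the sestrins *Sesn1* (92.3 and 54.7 FPKM, ratio 1.69) and *Sesn2* (15.5 and 5.67 FPKM, ratio 2.73) were called higher in GFP high cells. The thioredoxin reductases *Txnrd2* (1.81-fold) and *Txnrd3* (1.77-fold) were called higher in GFP low cells. Levels of selenoprotein genes stood apart in this table. Of the 24 genes that the annotation marks with a selenocysteine codon, among them *Gpx1*, *Gpx2*, *Gpx3*, *Gpx4*, *Txnrd1*, *Txnrd2* and *Txnrd3*, 15 reached 1000 FPKM in either library (62.5%), against 0.431% of all other entries. Their share of all FPKM was 10.5% in the GFP high library against 10.2% in the GFP low library. The cause was not tested, no member is among them, and their levels are not set against those of members here.

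Of 17 genes for sources of superoxide and peroxide, *Cyba* (16.8 and 9.58 FPKM, ratio 1.75) and *Maoa* (23.4 and 15.5 FPKM, ratio 1.51) were called higher in GFP high cells, with no call toward GFP low cells. The dual oxidase *Duox1* had 121 and 100 FPKM. Of 15 regulators of NRF2, *Nfe2l3* (36.9 and 14.4 FPKM, ratio 2.57), an NRF2 relative, and the small MAF factor *Maff* (63.7 and 41.1 FPKM, ratio 1.55) were called higher in GFP high cells, with no call toward GFP low cells. Of 28 NRF2 targets that are no members, 2 were called in each direction, *Pgd* and *Me1* higher in GFP high cells and *Aldh3a1* (14 and 42.7 FPKM, 3.05-fold) and *Lipa* (1.65-fold) higher in GFP low cells. Medians of the log2 difference were −0.05 for supply and turnover, −0.08 for the peroxidases and 0.01 for the thioredoxin and glutaredoxin list. They were 0.17 for the oxidant sources, 0.16 for the regulators and 0.10 for the targets, beside 0.53 for the transferases.

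**Figure D4:**
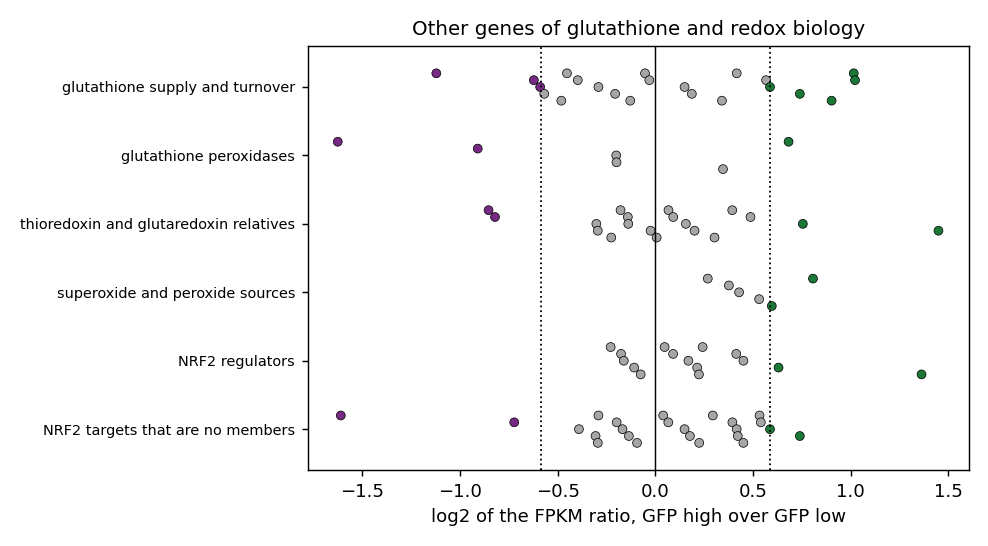
The log2 FPKM ratio, GFP high over GFP low, of each gene at 5 FPKM or more in either library in 6 lists of genes that are no members. Each point is 1 gene, green when called higher in GFP high cells, purple when called higher in GFP low cells and grey when not called, and dotted lines mark a ratio of 1.5 in each direction. Every list has points on both sides of 0 except the oxidant sources, whose 6 genes all lie on the GFP high side, and points of the same gene can appear in more than 1 list.

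Markers of several cell types differed between the libraries along with these genes. In pooled cells a gene made by fewer cells of a type cannot be told apart from one with less RNA per cell. Beside the marker counts stand the shares called over all entries, 4.72% higher in GFP high cells and 4.44% higher in GFP low cells. Over all genes at 5 FPKM or more in either library the shares were 9.48% and 8.9%. Of 10 suprabasal keratinocyte markers, 6 were called higher in GFP high cells, with no call toward GFP low cells. Summed levels of the 10 were 80220 and 37425 FPKM, led by *Krt13*, *Krtdap* and *Krt4*, of which *Krtdap* was not called. *Ivl* (0.67 and 2.19 FPKM), under the minimum in both libraries, was higher in GFP low cells. Of 7 basal keratinocyte markers, *Itgb4* was called higher in GFP low cells, with sums of 25796 and 32952 FPKM. Of 11 fibroblast markers, 8 were called higher in GFP low cells, with sums of 630 and 2969 FPKM. *Fbln1* (54.9 and 40.2 FPKM) and *Thy1* (19.6 and 16.2 FPKM) were higher in GFP high cells without a call. Of 8 Schwann lineage markers, 5 were called higher in GFP low cells, with sums of 67.9 and 265 FPKM. Neither the fibroblast nor the Schwann list had a marker at 0, but *Foxd3* and *Cdh19* were at 0.12 FPKM in GFP high cells. The study describes its GFP high cells as enriched in taste and progenitor cells, and its GFP low cells as a mix of epithelium and connective tissue. Markers of taste cells were not read here. The part of taste cells, keratinocyte layer, fibroblasts and Schwann cells in the ratios of *Gsta4*, *Gsta3*, *Gclm* and *Sod3* was not tested.

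Erythroid cells are rich in PRDX2 and catalase, and 3 of 11 erythroid markers, the globins *Hbb-bs* (63.9 and 23.0 FPKM), *Hba-a1* and *Hba-a2*, were called higher in GFP high cells. The erythroid sums were 119 and 41.1 FPKM, with *Hbb-y* at 0 in both libraries, and their part in the levels of *Prdx2* and *Cat* was not tested. Of 11 leukocyte markers none was called (21.5 and 24.02 FPKM, *Ptprc* at 0.06 and 0.02 FPKM). Endothelial markers included 1 of 9 called higher in GFP high cells (40.7 and 29.5 FPKM). Melanocyte markers included 1 of 7 (49.9 and 30.1 FPKM, with *Tyr* at 0 in both) and skeletal muscle markers 1 of 8 (24.5 and 23.6 FPKM). A single call in so short a list is not read as a difference in that cell type. The melanocyte sums were mainly *Kit* (31.4 and 26.2 FPKM) and the called *Mitf* (17.2 and 1.24 FPKM). The other melanocyte markers were at 1.09 FPKM or less. Of these, *Dct*, *Tyrp1* and *Mlana* were higher in GFP low cells and *Pmel* in GFP high cells. Of 10 genes of the dissociation response, *Atf3* was called higher in GFP high cells, *Egr1* was called the other way, with sums of 10275 and 9764 FPKM.

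Depth is not given per gene in the files. Low FPKM values matched whole reads best with roughly 27000000 reads for GFP high and 36000000 for GFP low, below the depth the labels state. Then 61.6% and 62.6% of low values were within 0.15 of a whole read, against 30% expected at a depth fixed beforehand. These depths were chosen because they gave the largest share, so the 30% is no test of them. At these depths the called members rested on about 172 reads or more in each library. The lowest was *Gsta2* in GFP low cells, where 49.8% of windows recur at another locus. *Gstm3* rested on about 5 and 8 reads and *Gstt4* on 0 and about 1, so that no ratio is given for *Gstt4*. Read numbers use the exons of all transcripts of a gene together, so they may be too high for genes with several transcripts.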

How the data were processed

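RNAseq was analysed from 1 library of GFP high and 1 library of GFP low cells of P0 lingual epithelium. Per the submitters' processing notes, reads were processed with Trimmomatic 0.36, GSNAP and Cufflinks 2.2.1 on mm10. The authors deposited FPKM per gene, rounded to 2 decimals, in columns named means. With 1 sample per population, a column was taken to hold a single library. A deposited column of the authors' comparison between the populations was not used.

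The members and gene lists were chosen with earlier results of these data known. Members were found by name. GENCODE M21 gave positions, gene types and exon lengths for 47 of the 49. Over all genes, 21 entries it types as not protein-coding were left out, 78 it does not list were kept, and 17 without a number in a library were not compared. A call needed a ratio of 1.5 and, in the population where the gene was higher, 5 FPKM. The study's Results give these thresholds, and its Methods ask for 5 FPKM in each sample, which was run as an alternative. No test was run, since FPKM are not counts and there are no replicates. Ratios are of FPKM with nothing added. Medians use log2(FPKM + 1) without genes at 0 in both libraries.

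Every member at 5 FPKM or more was named with its values. Of the pathway lists, called genes were named, at most 3 each way per list by size of ratio, and *Pgd*, *Me1*, *Slc7a11*, *Duox1* and the selenoprotein genes were named after their values were seen. Exon windows of 50 nt were compared with all annotated transcripts on both strands, and 20% or more shared was taken as uncertain. Depth was sought from genes with 1 transcript and 400 to 2500 nt of exons, less 200 nt. Promoter sequences are from RefSeq GRCm38.p6. Alternatives were TPM, a median scaling, other FPKM minimums, a ratio of 2, added constants of 1 and 0.1 and leaving out members with shared windows. TPM without selenoprotein genes was added after seeing the data. Scripts used Python 3.11.15, pandas 2.3.3, numpy 2.4.6, Biopython 1.88 and matplotlib 3.10.9 and were tested on simulated data.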

Additional observations from a re-analysis of the deposited data

How the results depend on the processing

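Of 185 recomputed ratios of the 37 members at 5 FPKM or more, none of a called member changed direction. *Mgst1* was no longer called on the TPM scale (1.46) or on that scale without selenoprotein genes (1.47), and *Gstk1* was called higher in GFP low cells on both (1.59 each). Calls higher in GFP high cells went from 9 to 2 with a ratio of 2, and calls higher in GFP low cells from 2 to 1. With no FPKM minimum these counts were 13 and 4, with a minimum of 1 FPKM 13 and 3, and with a minimum of 10 FPKM, or of 5 FPKM in both libraries, 7 and 2. Shares over all genes are given above for 5 FPKM in both libraries. They are not given for a ratio of 2 or for the other minimums, so those counts describe the members only. The median log2 difference of the members, 0.20, was 0.103 on the TPM scale, 0.109 on that scale without selenoprotein genes, 0.238 with GFP low cells scaled to the median ratio, 0.206 with a pseudocount of 0.1, 0.213 for members at 5 FPKM or more in either library, 0.264 for those at 1 FPKM or more, and 0.188 without members that share windows. No paired analysis was possible because there is 1 library per population. The depth behind each value is an estimate, and no setting replaces a replicate.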
